A study of Mus musculus with 25 samples.

Results

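The data described here are the liver transcriptomes of 9 mice labelled wild type (WT), 6 fed a Western diet and 3 fed chow. They were chosen by their labels from the 25 libraries of a study on the NAD-making enzyme NAMPT and the deacetylase SIRT1 in liver metabolism. Every gene over 1 CPM (counts scaled to library size) in 2 or more libraries was examined, which gave 14065 genes. All 9 mice received AAV8 without an insert (empty vector, EV). The comparison is thus between diets in mice that share genotype and virus. The strain is labelled C57B/6J, the age 20 weeks and the study length 12 weeks, with the mice grown to 8 weeks. Per the methods of the study, mice were male, WT mice were Sirt1-floxed littermates without the albumin-driven Cre, and the Western diet was a Teklad diet given ad libitum. Each library is 1 mouse, so the replicate spread includes the spread between animals. The labels give no hour of tissue collection, no time since the last meal, no cage and no sequencing batch, so none of these can be told apart from diet.

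The Western diet combines milk fat, sucrose and added cholesterol, and the liver answers these by separate sensors. Cholesterol holds SREBP2, the activator of sterol synthesis and uptake genes, in the endoplasmic reticulum, whereas oxysterols made from it activate LXR, which drives sterol export and Srebf1. Sugar and insulin drive fatty acid synthesis through ChREBP and SREBP1c, and fatty acids activate PPARalpha, the regulator of fat oxidation genes.

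Libraries held between 20216945 and 28415934 gene counts, and 19679 to 20688 genes had a count above 0. Values are TMM-normalized CPM, log2 fold changes (log2FC) are Western diet minus chow from limma, given ± their standard error (SE). Where 2 sets of CPM follow a gene, the 3 values are the chow libraries and the range is that of the 6 Western diet libraries. A gene is called when its adjusted p-value is 0.05 or less. Single libraries stood apart. Chow replicate 3 lay at -16.92 on the first principal component of the 25 libraries against -39.22 and -41.36 for the other chow mice, and limma gave it a quality weight of 0.608 against 1.8 and 2.5. Western diet replicate 8 was the lowest of its 6 libraries for 17 of 20 cholesterol synthesis genes, for 12 of 14 genes of sugar to fat conversion and for 13 of 15 lipid droplet genes. Western diet replicates 1 and 4 lay at 13.81 and 14.87 on the first component, against -23.95 to -13.66 for the other 4 Western diet mice. The calls leaned on chow replicates 1 and 2, since 3101 genes were called with all libraries, 952 without chow replicate 1, 843 without chow replicate 2, 3060 without chow replicate 3 and 3171 without Western diet replicate 8. Liver identity was plain in all libraries, with albumin (Alb) between 31845 and 52626 CPM. In these bulk samples, fewer cells of a type and less RNA per cell cannot be told apart.

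Over all genes, 22% were called: in 10.1% expression was above chow and in 12.0% below. The edgeR quasi-likelihood test called 9.40%. Most shifts were small: the median size among called genes was 0.52 on the log2 scale, and 664 genes (329 higher, 335 lower) were called with more than a 2-fold difference. A difference beyond 4-fold was called for 107 genes that rose and 79 that fell. For 16.1% of all genes the 6 Western diet libraries did not overlap the 3 chow libraries (7.66% above, 8.45% below). Scaling by library size alone gave 1053 of 3228 calls higher, in place of 1414 of 3101, so the balance of directions depends on the scaling.

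**Figure D1:**
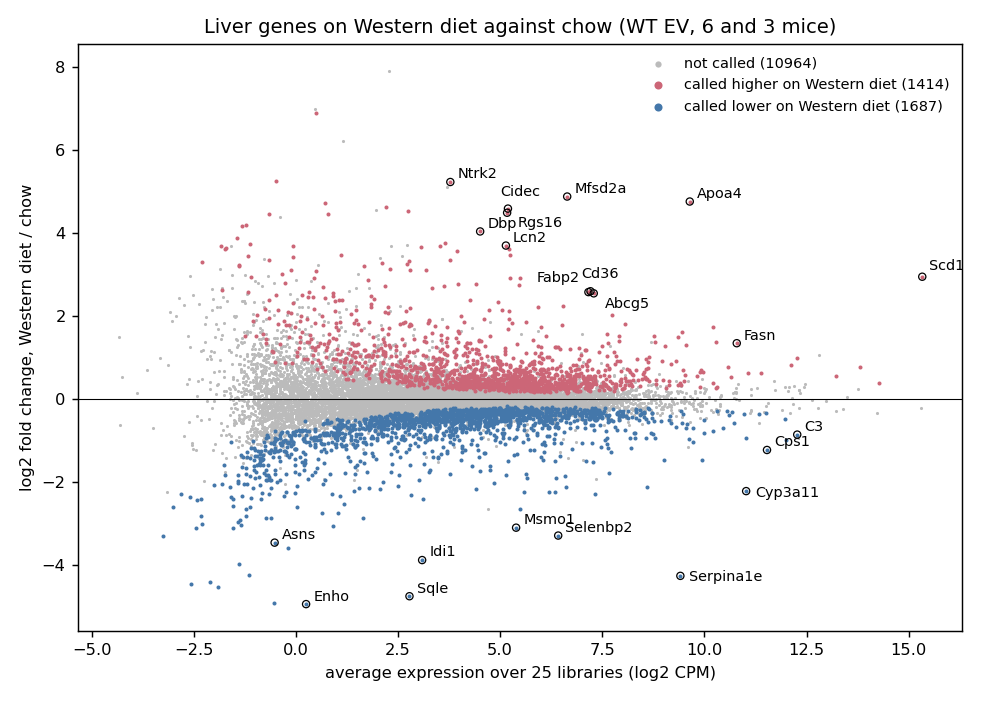
Log2 fold change of Western diet against chow (vertical axis) by average expression in log2 CPM (horizontal axis) for the 14065 genes tested, with the 1414 higher calls in red, the 1687 lower calls in blue and the rest in grey; circled genes are named. Scd1, the most abundant circled gene, sits at a log2 fold change of 2.95, while Sqle, Enho and Serpina1e lie below -4.

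Gene lists for pathways and cell types were read by how many members were called each way, beside these shares for all genes and beside the median log2 fold change of all genes, which was close to 0 (-0.0047). Cholesterol synthesis had the highest share of any list, with 95.0% of its genes called, all of them lower. The lists of complement and coagulation, urea cycle and amino acid catabolism, glutathione transferases, periportal genes and cytosolic ribosomal proteins each had more members called lower than higher. Lists were counted without tests, and their members were chosen with earlier results of these data known.

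**Figure D2:**
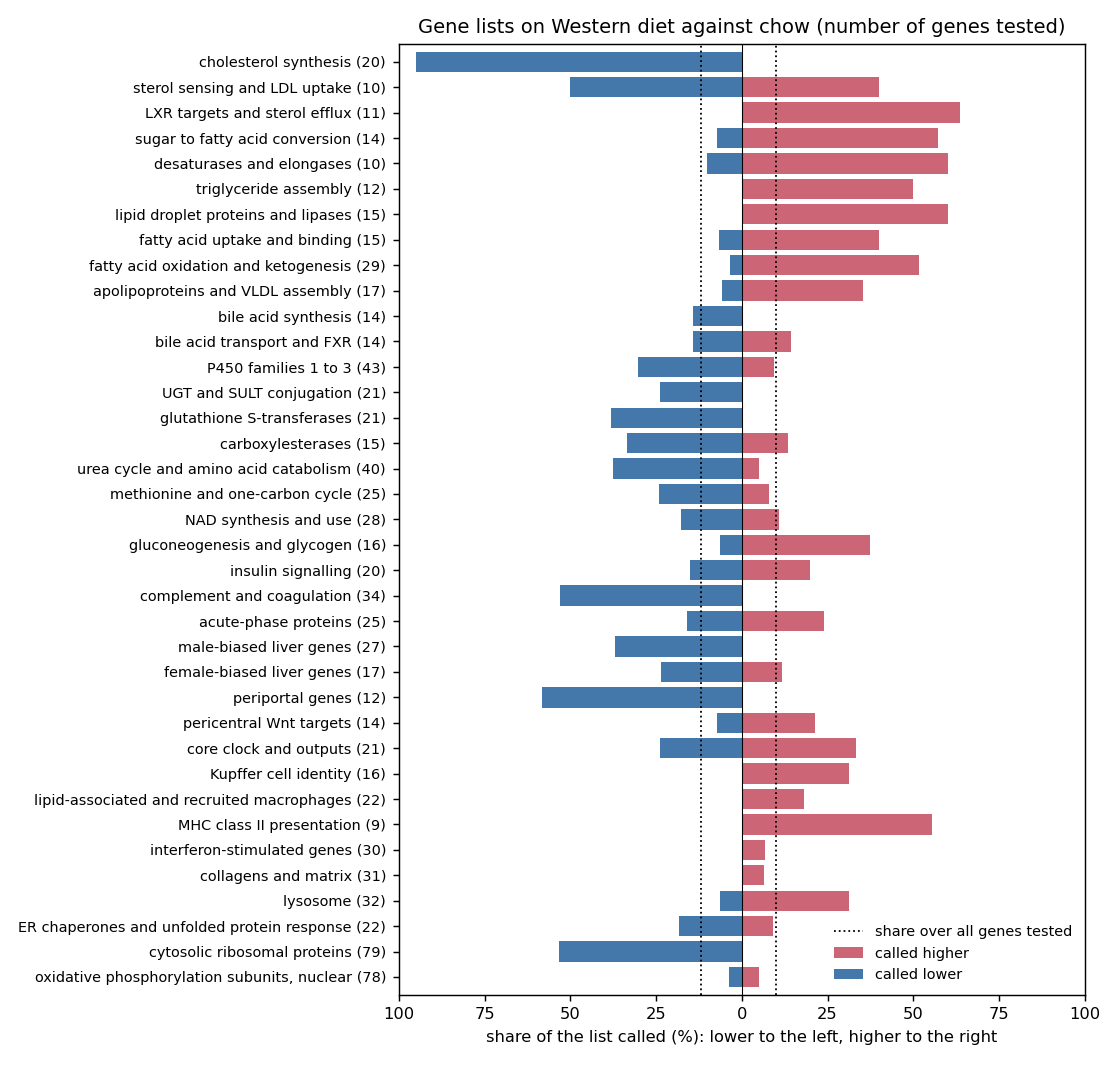
Share of each gene list, in percent of its tested members (number in brackets), called higher (red, to the right) or lower (blue, to the left); dotted lines mark the shares over all genes, 10.1% higher and 12.0% lower. Cholesterol synthesis reaches 95.0% to the left, while LXR targets, desaturases, lipid droplet proteins and fatty acid oxidation extend to the right.

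Cholesterol synthesis was the list with the most uniform change. Of its 20 genes, 19 fell, none rose, and the median log2 fold change was -1.95. The 6 Western diet libraries lay below all 3 chow libraries for 19 of 20 genes. The list kept 18 calls without chow replicate 1, 16 without replicate 2 and 19 without replicate 3. Summed over the list, expression was 3823 to 5538 CPM on chow and 1367 to 2372 CPM on Western diet.

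Sqle, Idi1 and Msmo1 fell furthest. Sqle (ENSMUSG00000022351, chromosome 15 from 59315077 to 59331192 in GRCm38), the squalene epoxidase that is a rate-limiting step, measured 140, 136 and 59 CPM on chow and between 1.85 and 11.1 CPM (median 4.21) on Western diet. The groups did not overlap, and expression was 26.8-fold lower (log2FC -4.74 ± 0.33, adjusted p = 4.94e-10). Idi1, which isomerizes the isoprenoid building block, measured 118, 109 and 52.9 CPM on chow and between 3.14 and 9.26 CPM (median 7.56) on Western diet (log2FC -3.87 ± 0.21, adjusted p = 3.51e-12). Msmo1, a sterol C4-methyl oxidase, measured 386, 344 and 135 CPM and between 18.6 and 61.4 CPM (median 36.8, log2FC -3.09 ± 0.26, adjusted p = 8.5e-09). In all these genes chow replicate 3 was the lowest chow library and still lay above each Western diet library. Cyp51 (lanosterol demethylase; log2FC -2.65 ± 0.20, adjusted p = 1.77e-09) and Mvk (mevalonate kinase; log2FC -2.41 ± 0.13, adjusted p = 2.97e-12) were among the falls with the smallest p-values of all genes.

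**Figure D3:**
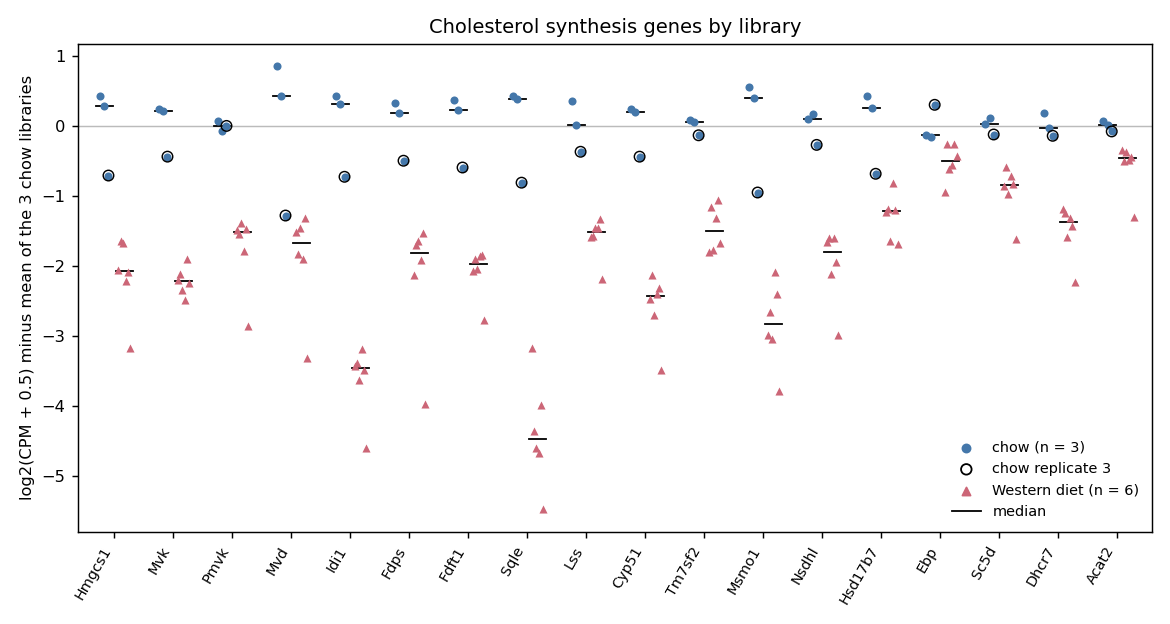
Expression of 18 of the 20 cholesterol synthesis genes in each library, as log2(CPM + 0.5) minus the mean of the 3 chow libraries, with circles for chow (replicate 3 ringed), triangles for Western diet and bars for group medians. Western diet triangles lie below the chow circles for all 18 genes shown.

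The start-site sequences of this list are shown because its members moved together. RefSeq promoters (GRCm38.p6, 250 bases before the start site) were matched for 15 of the 20 genes, and 4 short motifs were searched on both strands. The CCAAT box, the site of NF-Y, was present in 14 of 15 (93.3%), against 40.5% of 10361 tested genes with a promoter and 33.8% of all 32851 promoters of the table. A sterol regulatory element of the form TCACNCCAC was present in 1 of 15, Hmgcs1, against 1.29% of tested genes and 1.05% of all promoters. The E-box CACGTG was present in 3 of 15 against 9.78% of tested genes, and the D-box TTANGTAA in 0 against 1.75%. These matches are letters in a window and say nothing of binding. Shown are the 4 members with 1 listed promoter that fell furthest, and Hmgcs1 for its sterol element, at chr13:8885356-8885605 (plus strand), chr8:64733579-64733828 (minus), chr5:4104698-4104947 (minus), chr5:114444019-114444268 (plus) and chr13:119690101-119690350 (plus). Each is written 5′ to 3′ along the gene and ends at the base before the start site, with CCAAT boxes (ATTGG on the other strand) and the sterol element in capitals.
Idi1: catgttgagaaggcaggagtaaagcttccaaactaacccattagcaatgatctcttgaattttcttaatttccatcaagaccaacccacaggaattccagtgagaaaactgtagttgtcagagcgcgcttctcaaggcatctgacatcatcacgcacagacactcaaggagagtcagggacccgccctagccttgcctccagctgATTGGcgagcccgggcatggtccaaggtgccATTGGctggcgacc
Msmo1: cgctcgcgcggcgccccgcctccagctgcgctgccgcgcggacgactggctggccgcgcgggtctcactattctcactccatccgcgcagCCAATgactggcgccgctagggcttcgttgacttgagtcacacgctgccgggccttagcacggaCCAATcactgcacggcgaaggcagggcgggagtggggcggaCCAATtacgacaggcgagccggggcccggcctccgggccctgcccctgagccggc
Cyp51: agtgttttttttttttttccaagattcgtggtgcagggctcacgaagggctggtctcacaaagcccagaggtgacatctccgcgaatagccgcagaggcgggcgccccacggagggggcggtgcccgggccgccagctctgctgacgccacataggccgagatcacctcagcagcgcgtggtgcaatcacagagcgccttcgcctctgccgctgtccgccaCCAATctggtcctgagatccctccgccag
Mvk: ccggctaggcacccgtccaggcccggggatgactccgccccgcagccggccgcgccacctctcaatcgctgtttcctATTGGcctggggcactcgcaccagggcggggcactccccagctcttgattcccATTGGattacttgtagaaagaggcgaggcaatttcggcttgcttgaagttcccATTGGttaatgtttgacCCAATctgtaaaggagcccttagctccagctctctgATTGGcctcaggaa
Hmgcs1: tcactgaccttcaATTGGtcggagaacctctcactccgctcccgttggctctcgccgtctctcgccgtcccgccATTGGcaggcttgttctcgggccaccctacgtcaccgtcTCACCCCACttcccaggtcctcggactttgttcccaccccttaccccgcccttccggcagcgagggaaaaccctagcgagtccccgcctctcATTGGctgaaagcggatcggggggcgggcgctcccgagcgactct

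In these windows Mvk held 5 CCAAT boxes, Msmo1 and Hmgcs1 3 each, Idi1 2 and Cyp51 1. The sterol element of Hmgcs1 lay 128 bases before the start site. Hmgcs1, which makes the pathway's first committed precursor, measured 981, 886 and 445 CPM on chow and between 80.5 and 233 CPM (median 173) on Western diet (log2FC -2.27 ± 0.26, adjusted p = 1.79e-06).

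Regulators of sterol balance moved in both directions. Of 10 sterol sensing and LDL uptake genes 4 rose and 5 fell, and 5 and 4 of these calls were left without chow replicate 1 or 2. Srebf2, which encodes SREBP2, fell from 96.1, 96.9 and 78.9 CPM to between 40.6 and 57 CPM (median 48.7, log2FC -0.95 ± 0.09, adjusted p = 9.26e-08). It was lower in each Western diet mouse than in any chow mouse. The Insig genes, whose proteins retain SREBP, went opposite ways. Insig2 rose (log2FC 0.96 ± 0.23, adjusted p = 0.00367) and Insig1 fell (log2FC -0.92 ± 0.23, adjusted p = 0.00682). The Insig1 call was lost without chow replicate 1 or 2 (adjusted p = 0.294 without chow replicate 1 and 0.3 without chow replicate 2).

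LXR targets and sterol efflux genes rose, with 7 of 11 higher, 0 lower and a median of 0.51. Abcg5 and Abcg8, the transporter subunits that pump sterols into bile, gave the clearest rises. Abcg5 measured 23.2, 29.4 and 70.7 CPM on chow and between 115 and 277 CPM (median 183) on Western diet, 5.84-fold higher with no overlap (log2FC 2.55 ± 0.23, adjusted p = 3.6e-08). Abcg8 measured 40.2, 58.6 and 128 CPM and between 144 and 444 CPM (median 233, log2FC 2.02 ± 0.24, adjusted p = 3.24e-06). For both genes chow replicate 3 was the highest chow library. Their transcripts share 82 bases on opposite strands, and whether reads were counted by strand is not given in the sources used here. Srebf1, an LXR target and the gene of SREBP1, rose from 283, 274 and 194 CPM to between 583 and 1277 CPM (median 822, log2FC 1.63 ± 0.19, adjusted p = 1.79e-06). Of its bases 109 lie opposite Rai1. Abca1, the macrophage and hepatocyte efflux pump, did not pass (log2FC 0.20 ± 0.09, adjusted p = 0.0913).

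Genes that turn sugar into fat were mostly higher, 8 of 14 with 1 lower and a median of 0.87. Pklr, the liver pyruvate kinase, measured 124, 96.2 and 60.7 CPM on chow and between 247 and 419 CPM (median 362) on Western diet (log2FC 1.81 ± 0.23, adjusted p = 7e-06). Khk, the fructokinase, rose from 266, 239 and 222 CPM to between 419 and 580 CPM (median 490, log2FC 1.01 ± 0.15, adjusted p = 4.69e-05). Neither gene overlapped between diets. Fasn, fatty acid synthase, did overlap, with 1282, 949 and 548 CPM and between 1022 and 4166 CPM (median 2626, log2FC 1.35 ± 0.34, adjusted p = 0.00571), and its lowest Western diet value was that of replicate 8. Acaca, which makes malonyl-CoA, also rose (log2FC 0.93 ± 0.20, adjusted p = 0.00161). Acly and the ChREBP gene Mlxipl did not pass (log2FC -0.03 ± 0.26, adjusted p = 0.953 and log2FC 0.18 ± 0.13, adjusted p = 0.344). Acss2, which makes acetyl-CoA from acetate and is also a SREBP2 target, fell from 288, 251 and 247 CPM to between 51.4 and 152 CPM (median 126, log2FC -1.19 ± 0.27, adjusted p = 0.00261). That call was lost without chow replicate 1 or 2 (adjusted p = 0.0736 without chow replicate 1 and 0.0711 without chow replicate 2). Exons of Gss on the other strand cover 395 bases of Acss2, and those of Hcn3 711 bases of Pklr.

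Desaturases and elongases showed the largest gain in abundance of any list. Scd1, the stearoyl-CoA desaturase that makes monounsaturated fat, measured 7335, 5881 and 14388 CPM on chow and between 25443 and 75705 CPM (median 58151) on Western diet. Every Western diet mouse was above every chow mouse and the fold was 7.74 (log2FC 2.95 ± 0.21, adjusted p = 8.72e-10). Scd2 (log2FC 1.87 ± 0.24, adjusted p = 5.32e-06), Elovl5 (log2FC 1.73 ± 0.24, adjusted p = 2.25e-05), Elovl6 (log2FC 1.57 ± 0.27, adjusted p = 0.000212), Fads2 (log2FC 1.30 ± 0.15, adjusted p = 1.36e-06) and Elovl2 (log2FC 0.44 ± 0.16, adjusted p = 0.0493) rose too. The Elovl2 call was lost in 6 of the 9 fits without 1 library, with an adjusted p of up to 0.785. Elovl3, which elongates very long chains and is male-biased and rhythmic in mouse liver, fell from 815, 576 and 219 CPM to between 140 and 271 CPM (median 213, log2FC -1.48 ± 0.48, adjusted p = 0.028). That call was lost in 4 of the 9 fits without 1 library, with an adjusted p of up to 0.542. The list had 6 genes higher and 1 lower of 10, and its summed expression was 8368 to 17663 CPM on chow and 27803 to 81068 CPM on Western diet, with replicate 8 the lowest.

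Many triglyceride assembly and storage genes rose as well. Of 12 assembly genes 6 were higher and 0 lower (median 0.49), and of 15 lipid droplet genes 9 were higher and 0 lower (median 0.70). Cidec, the droplet fusion protein also called Fsp27, measured 2.61, 1.6 and 2.13 CPM on chow and between 5.64 and 115 CPM (median 64.4) on Western diet, where replicate 8 gave the lowest value (log2FC 4.59 ± 1.13, adjusted p = 0.00528). Plin4, a droplet coat protein, measured 4.09, 2.98 and 3.43 CPM and between 5.73 and 58.5 CPM (median 23.7, log2FC 2.77 ± 0.86, adjusted p = 0.0224). Pnpla3, a droplet lipase, measured 1.03, 0.134 and 0.986 CPM and between 2.45 and 25.7 CPM (median 9.31, log2FC 4.53 ± 1.53, adjusted p = 0.0351). Mogat1, a monoacylglycerol acyltransferase, measured 0.331, 0.267 and 0.197 CPM and between 0.601 and 6.93 CPM (median 3.92, log2FC 3.48 ± 1.04, adjusted p = 0.0184). None of these 4 genes overlapped between diets, but Western diet mice varied by more than 10-fold, and the 4 calls were lost without chow replicate 1 or 2 (for Cidec, adjusted p = 0.114 without chow replicate 1 and 0.128 without chow replicate 2). Plin2, the general droplet coat, rose from 354, 332 and 361 CPM to between 349 and 941 CPM (median 620, log2FC 0.84 ± 0.17, adjusted p = 0.00118; adjusted p = 0.0594 without chow replicate 2). Dgat2, which adds the last acyl chain, rose from 381, 354 and 285 CPM to between 438 and 613 CPM (median 486, log2FC 0.47 ± 0.12, adjusted p = 0.008; adjusted p = 0.0545 without chow replicate 2). The droplet list kept 3 and 2 calls without chow replicate 1 or 2 and the assembly list 2 and 1. Cidea, a droplet protein more typical of brown fat, was at 0.0827, 0.0445 and 0 CPM on chow and between 0.185 and 48.3 CPM (median 14.8) on Western diet, above chow in all 6 mice, but did not pass in limma (adjusted p = 0.239). Of the adipocyte markers listed, Cidea and Cfd were the only ones expressed enough to be tested. Cfd, the adipocyte protease adipsin, measured 0.0413, 0.089 and 0.0789 CPM and between 0.924 and 60.9 CPM (median 32.3) and did not pass in limma either (adjusted p = 0.281). By quasi-likelihood in edgeR both were higher, with adjusted p = 0.0259 for Cidea and 0.0186 for Cfd. Their chow values rest on at most a few counts per library.

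**Figure D4:**
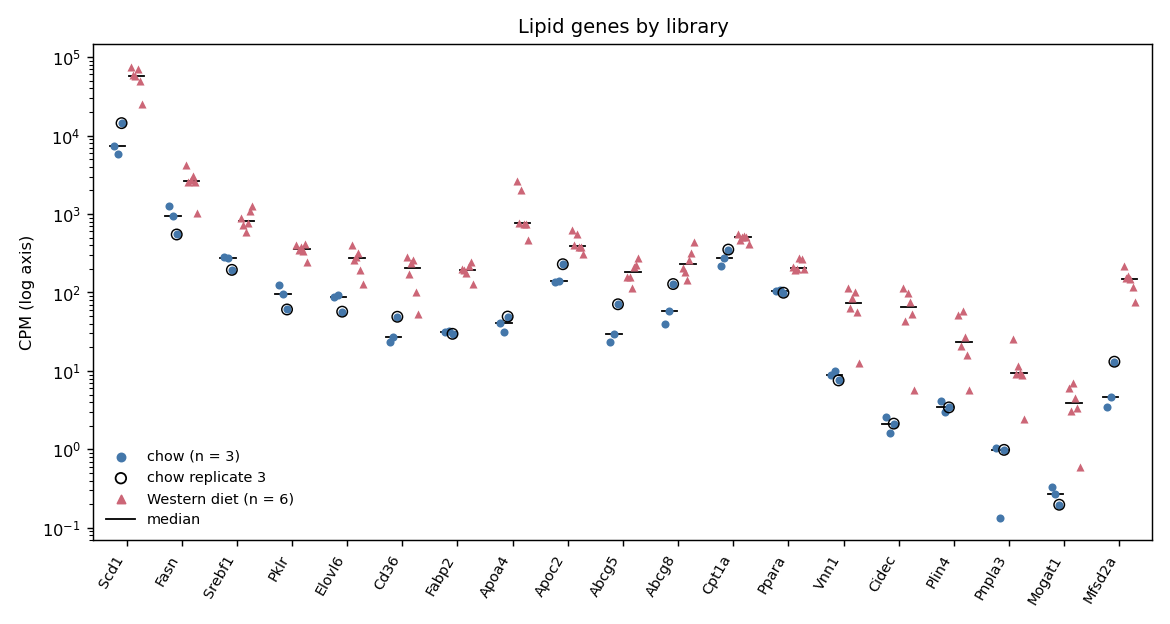
CPM on a log axis of 19 lipid genes in each library, with circles for chow (replicate 3 ringed), triangles for Western diet and bars for group medians. Scd1 lies at 25443 CPM or more in all Western diet libraries, Apoa4 and Mfsd2a are separated from chow in all mice, and Cidec, Plin4, Pnpla3 and Mogat1 spread over more than 10-fold on Western diet.

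Fatty acid uptake and binding genes were higher for 6 of 15, with 1 lower and a median of 0.36. Cd36, a fatty acid translocase, measured 23.4, 27.3 and 49 CPM on chow and between 53.3 and 286 CPM (median 205) on Western diet (log2FC 2.58 ± 0.29, adjusted p = 1.01e-06). Fabp2, the intestinal-type fatty acid binding protein, gave one of the smallest p-values of all rises, with 31.2, 31.9 and 29.7 CPM and between 128 and 242 CPM (median 195, log2FC 2.60 ± 0.13, adjusted p = 2.97e-12). The abundant liver form Fabp1 went from 2967, 2910 and 3025 CPM to between 4030 and 7656 CPM (median 5943), 2.01-fold higher (log2FC 1.0 ± 0.17, adjusted p = 0.000189). None of the 3 overlapped between diets. Without chow replicate 1 the list had 4 calls in place of 7.

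Fatty acid oxidation genes rose alongside synthesis genes, 15 of 29 with 1 lower and a median of 0.44, and 9 and 10 calls were left without chow replicate 1 or 2. Cpt1a, the gate for fatty acids into mitochondria, measured 219, 271 and 352 CPM and between 416 and 553 CPM (median 511, log2FC 0.93 ± 0.12, adjusted p = 8.86e-06). Ppara, whose product senses fatty acids, rose from 103, 109 and 99.2 CPM to between 193 and 274 CPM (median 204, log2FC 1.04 ± 0.16, adjusted p = 5.69e-05). Western diet values of both genes lay above chow in all mice. Vnn1, a pantetheinase and PPARalpha target, measured 8.85, 10 and 7.57 CPM and between 12.5 and 113 CPM (median 73.9, log2FC 2.74 ± 0.48, adjusted p = 0.00026). Pdk4, the kinase that shuts off pyruvate oxidation and another PPARalpha target, fell (log2FC -1.29 ± 0.34, adjusted p = 0.00873; adjusted p = 0.29 without chow replicate 1 and 0.146 without chow replicate 2). The PPARalpha-responsive omega-hydroxylases split. Cyp4a10 was higher (log2FC 1.52 ± 0.34, adjusted p = 0.00258; adjusted p = 0.309 without chow replicate 1 and 0.178 without chow replicate 2) and Cyp4a32 lower (log2FC -0.65 ± 0.21, adjusted p = 0.0281; lost in 4 of the 9 fits without 1 library, with an adjusted p of up to 0.0732). Cyp4a14 did not pass, at 38, 83.2 and 666 CPM and between 43.7 and 341 CPM (median 238, log2FC 1.12 ± 0.57, adjusted p = 0.159). Cyp4a genes are near-identical copies, so their counts are uncertain. The 2 calls of these 6 genes became 1 without chow replicate 1 or Western diet replicate 1 or 4, and 0 without chow replicate 2.

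Among apolipoproteins and VLDL assembly genes 6 of 17 rose and 1 fell, and 4 calls were left without chow replicate 1 or 2. Apoa4, an apolipoprotein of triglyceride-rich particles, measured 41.2, 31.7 and 49.3 CPM on chow and between 462 and 2647 CPM (median 765) on Western diet, 27-fold higher and separate in all mice (log2FC 4.76 ± 0.30, adjusted p = 6.52e-11). Exons of Gm10680 cover 632 bases of Apoa4 on the other strand. Apoc2, the lipoprotein lipase cofactor, rose from 137, 142 and 229 CPM to between 309 and 628 CPM (median 389, log2FC 1.52 ± 0.14, adjusted p = 4.35e-08). Apom, the HDL carrier of sphingosine-1-phosphate, fell from 173, 177 and 204 CPM to between 61 and 123 CPM (median 89.1, log2FC -1.05 ± 0.15, adjusted p = 2.35e-05). The structural apolipoproteins Apoa1 (log2FC -0.02 ± 0.13, adjusted p = 0.91) and Apob (log2FC -0.24 ± 0.11, adjusted p = 0.131) did not pass.

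Bile acid genes moved little as lists. Of 14 synthesis genes 0 rose and 2 fell, and of 14 transport and FXR genes 2 rose and 2 fell, near the background of 22%. Synthesis genes gave 4 calls without Western diet replicate 2 or 8 and 1 without chow replicate 1 or 2. Cyp7a1, the rate-limiting enzyme of the classic pathway, ranged widely in both groups, with 348, 195 and 59 CPM and between 45.1 and 240 CPM (median 56), and did not pass (log2FC -1.26 ± 0.49, adjusted p = 0.0668). Cyp39a1, an oxysterol hydroxylase, fell from 21.9, 24 and 17.5 CPM to between 5.21 and 11.1 CPM (median 8.97, log2FC -1.38 ± 0.20, adjusted p = 3.94e-05). The canalicular pumps parted. Abcb4, which exports phospholipid, rose from 218, 216 and 205 CPM to between 287 and 394 CPM (median 318, log2FC 0.61 ± 0.09, adjusted p = 6.64e-05). Abcb11, the bile salt pump, fell from 706, 728 and 697 CPM to between 424 and 543 CPM (median 520, log2FC -0.52 ± 0.10, adjusted p = 0.000622). Both differences, though under 2-fold, separated all mice. Slco1a4, a basolateral organic anion uptake carrier, fell from 91.5, 106 and 116 CPM to between 11.6 and 39.7 CPM (median 30.8, log2FC -1.83 ± 0.26, adjusted p = 2.25e-05).

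Among drug-metabolizing enzymes more genes fell than rose, and most were not called. Of 43 cytochrome P450 genes of families 1 to 3, 13 fell, 4 rose and 26 did not pass (median -0.35). Summed expression was 21119 to 26301 CPM on chow and 11623 to 20717 CPM on Western diet. For 29 of the 43 chow replicate 3 was the lowest chow library. Western diet replicate 4 was the lowest of its group for 17 and replicate 6 the highest for 19. Cyp3a11, the main hepatic Cyp3a enzyme and a PXR target, measured 8672, 9149 and 9774 CPM on chow and between 1434 and 3053 CPM (median 1941) on Western diet, 4.62-fold lower and one of the 5 largest losses in CPM of any gene (log2FC -2.21 ± 0.21, adjusted p = 1.14e-07). Cyp3a16 (log2FC -2.13 ± 0.21, adjusted p = 1.15e-07), Cyp3a44 (log2FC -2.17 ± 0.23, adjusted p = 3.84e-07) and the CAR target Cyp2b10 (log2FC -2.74 ± 0.34, adjusted p = 5.23e-06) fell by similar amounts, and none of the 4 overlapped between diets. The mRNA of the receptors did not pass: Nr1i3 (CAR) gave 0.42 ± 0.23 and Nr1i2 (PXR) 0.05 ± 0.15, adjusted p = 0.194 and 0.856. Cyp2e1, an ethanol-oxidizing enzyme, did not pass (log2FC 0.30 ± 0.27, adjusted p = 0.463), and Cyp2d40 rose (log2FC 1.75 ± 0.22, adjusted p = 4.71e-06). The list kept 9 calls without chow replicate 1 or 2. These families hold close paralogs between which reads may be split.

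Conjugating enzymes gave 5 of 21 UGT and SULT genes lower with 0 higher, a share of 23.8% near the 22% of all genes. Of 21 glutathione transferases 8 were lower and 0 higher (38.1%). The quasi-likelihood test called 0 of the UGT and SULT genes and 5 of the transferases. Gstp1, a major glutathione transferase of male liver, fell from 1541, 1324 and 1351 CPM to between 392 and 1049 CPM (median 439, log2FC -1.46 ± 0.21, adjusted p = 3.54e-05), and so did its near-copy Gstp2 (log2FC -1.45 ± 0.21, adjusted p = 2.53e-05). The UGT and SULT list kept 1 call without chow replicate 1 or 2, and 2 to 3 calls were made without chow replicate 3 or Western diet replicate 1, 4 or 7. The transferase list kept 5 without chow replicate 1 or 2 and had 4 without Western diet replicate 1. Of 21 genes of the NRF2 antioxidant response 3 rose and 1 fell, and the marker Nqo1 did not pass (log2FC 0.61 ± 0.29, adjusted p = 0.132). This count of 4 moved with single libraries and was 9 without Western diet replicate 8, 2 without chow replicate 1 and 1 without chow replicate 2. Carboxylesterases fell for 5 of 15 and rose for 2. Ces2a measured 435, 457 and 638 CPM and between 96.1 and 240 CPM (median 187, log2FC -1.52 ± 0.25, adjusted p = 0.000145), while Ces2e rose (log2FC 0.83 ± 0.17, adjusted p = 0.00139).

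Of 27 male-biased liver genes 10 fell and 0 rose, with a median of -0.96. Serpina1e, a male-biased copy of the alpha-1-antitrypsin family, measured 12444, 10314 and 13115 CPM on chow and between 90.6 and 5703 CPM (median 584) on Western diet, a 19-fold fall with no overlap (log2FC -4.25 ± 0.88, adjusted p = 0.00142; adjusted p = 0.0586 without chow replicate 2). Selenbp2, a near-copy of a selenium binding protein, measured 1009, 863 and 179 CPM and between 16.9 and 566 CPM (median 79.8), overlapping through chow replicate 3 (log2FC -3.28 ± 0.69, adjusted p = 0.00146; adjusted p = 0.141 without chow replicate 1 and 0.153 without chow replicate 2). Western diet mice differed from each other by more than 30-fold in both genes, with replicate 8 the highest of the 6. Summed over the list, expression was 22642 to 35288 CPM on chow, 7589 and 6346 CPM in Western diet replicates 1 and 4, and 16254 to 25622 CPM in the other 4. Replicate 4 was the lowest of its group for 15 of the 27 genes and replicate 1 for 11, while replicate 8 was the highest for 15. Chow replicate 3 was the lowest chow library for 22 of the 27 male-biased genes. Only 4 calls of this list remained without chow replicate 1 or 2. None of 21 major urinary protein genes was called, with a range of log2 fold changes from -1.91 to 1.58, and these near-identical copies share reads. Female-biased genes split, 2 higher and 4 lower of 17. Ntrk2, a neurotrophin receptor, rose from 0.413, 0.445 and 6.23 CPM to between 14.8 and 37.8 CPM (median 23.9, log2FC 5.23 ± 0.99, adjusted p = 0.000622), and the Cyp3a copies named above fell.

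In the growth hormone and IGF1 axis 4 of 15 genes fell and 1 rose. Igf1, the circulating growth factor, was at 810, 773 and 825 CPM on chow and between 373 and 673 CPM (median 587) on Western diet (log2FC -0.56 ± 0.16, adjusted p = 0.013), and its serum partner Igfals at 123, 107 and 120 CPM and between 33 and 113 CPM (median 65, log2FC -0.88 ± 0.25, adjusted p = 0.0123). Igfbp2 fell (log2FC -0.94 ± 0.25, adjusted p = 0.00894). These 3 calls were lost without chow replicate 2 at the least (for Igf1, adjusted p = 0.126 without chow replicate 1 and 0.13 without chow replicate 2), and the list kept 2 and 0 calls without chow replicate 1 or 2.

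Among amino acid enzymes more genes fell than rose. Of 40 urea cycle and amino acid catabolism genes 15 fell, 2 rose and 23 did not pass (median -0.32), and 11 and 9 of the calls were left without chow replicate 1 or 2. Cps1, the entry enzyme of the urea cycle, measured 5917, 6518 and 7102 CPM on chow and between 1324 and 4970 CPM (median 3096) on Western diet (log2FC -1.22 ± 0.25, adjusted p = 0.00117). Csad, which makes taurine from cysteine, fell from 392, 337 and 336 CPM to between 53.5 and 172 CPM (median 68.7, log2FC -2.23 ± 0.29, adjusted p = 9.97e-06). Gls2, the liver glutaminase, fell from 362, 343 and 676 CPM to between 86.6 and 280 CPM (median 182, log2FC -1.17 ± 0.26, adjusted p = 0.0023). Groups did not overlap for these genes, and the urea cycle enzyme Ass1 (log2FC -0.93 ± 0.19, adjusted p = 0.000934) fell less. Chow replicate 3 was the highest chow library for 26 of the 40 genes and Western diet replicate 1 the lowest of its group for 27. Of 25 methionine and one-carbon genes 6 fell, 2 rose and 17 did not pass, with 3 calls left without chow replicate 2. Cth, the cystathionase that makes cysteine, went from 600, 597 and 1028 CPM to between 111 and 257 CPM (median 199, log2FC -1.78 ± 0.23, adjusted p = 6.53e-06). Gnmt, which buffers S-adenosylmethionine, fell from 1679, 1778 and 2240 CPM to between 565 and 1512 CPM (median 1038, log2FC -0.81 ± 0.19, adjusted p = 0.00449; adjusted p = 0.0592 without chow replicate 2). Mat1a, which makes S-adenosylmethionine, did not pass (log2FC 0.25 ± 0.15, adjusted p = 0.227).

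Many of these enzymes sit around the portal vein, and of 12 periportal genes 7 fell and 0 rose (median -0.81), with 7 and 6 calls left without chow replicate 1 or 2. Summed expression was 13759 to 19007 CPM on chow and 5111 to 12371 CPM on Western diet. For 10 of the 12 genes chow replicate 3 was the highest chow library. Western diet replicate 1 was the lowest of its group for 9 and replicate 8 the highest for 9. Cdh1, the E-cadherin of periportal hepatocytes, measured 67.4, 71.7 and 73.8 CPM on chow and between 9.72 and 30.3 CPM (median 16.1) on Western diet (log2FC -2.17 ± 0.27, adjusted p = 4.77e-06). Hal, the histidine ammonia-lyase, measured 348, 361 and 462 CPM and between 113 and 352 CPM (median 187, log2FC -0.98 ± 0.23, adjusted p = 0.00335; adjusted p = 0.0525 without chow replicate 2). Cdh1 was separate in all mice. Of 14 pericentral Wnt targets 3 rose and 1 fell (median 0.21), with 1 call left without chow replicate 1 or 2 and 2 calls without Western diet replicate 1. For 13 of the 14 chow replicate 3 was the lowest chow library, with a list sum of 4495 CPM against 6458 and 7951 CPM. Glul, the glutamine synthetase of the central vein rim, did not pass, at 799, 899 and 401 CPM and between 811 and 1463 CPM (median 1150, log2FC 0.50 ± 0.22, adjusted p = 0.102). Cyp1a2, a pericentral P450, fell (log2FC -1.17 ± 0.26, adjusted p = 0.00263; adjusted p = 0.205 without chow replicate 1 and 0.296 without chow replicate 2).

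The genes at the centre of the study, NAD enzymes and sirtuins, stayed near the background: of 28, 3 rose and 5 fell, and 2 and 1 calls were left without chow replicate 1 or 2. Nampt (log2FC 0.28 ± 0.16, adjusted p = 0.234) and Sirt1 (log2FC -0.21 ± 0.11, adjusted p = 0.172) did not pass. The calls lower were Acmsd, Aox3, Afmid, Kynu and Nadk2, and those higher Nnt, Nmnat1 and Nadk. Acmsd, which diverts tryptophan away from NAD, measured 34, 25.7 and 75.9 CPM on chow and between 5.32 and 15.7 CPM (median 9.81) on Western diet with no overlap (log2FC -1.81 ± 0.30, adjusted p = 0.000169). Aox3, an aldehyde oxidase that clears nicotinamide products, fell from 764, 831 and 656 CPM to between 305 and 592 CPM (median 413, log2FC -0.94 ± 0.18, adjusted p = 0.000634; adjusted p = 0.0718 without chow replicate 2). Nnmt, which methylates nicotinamide and was counted with the one-carbon genes, fell with overlapping groups (log2FC -0.87 ± 0.28, adjusted p = 0.0272; lost in 4 of the 9 fits without 1 library, with an adjusted p of up to 0.0749).

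Glucose handling showed 6 of 16 gluconeogenesis and glycogen genes higher and 1 lower, with 4 calls without chow replicate 1 or 2 or Western diet replicate 2. Pcx, pyruvate carboxylase, which also feeds lipogenesis, rose from 375, 416 and 412 CPM to between 576 and 841 CPM (median 791, log2FC 0.92 ± 0.14, adjusted p = 3.84e-05). Gbe1, the glycogen branching enzyme, rose too (log2FC 0.95 ± 0.17, adjusted p = 0.000436). Pck1, the gluconeogenic control enzyme, did not pass (log2FC -0.09 ± 0.23, adjusted p = 0.809). In insulin signalling 4 of 20 rose and 3 fell, and 3 of these 7 calls were left without chow replicate 1 or 2. Irs2, the insulin receptor substrate that insulin represses, measured 29.2, 25.6 and 43.9 CPM and between 10.6 and 17.6 CPM (median 13.6, log2FC -1.12 ± 0.20, adjusted p = 0.00026). Rictor, a subunit of mTOR complex 2, fell (log2FC -0.60 ± 0.09, adjusted p = 5.39e-05), and Pik3r1, the regulatory subunit of PI3-kinase, rose (log2FC 0.56 ± 0.08, adjusted p = 2.24e-05). All 3 separated the groups.

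Secreted liver factors gave some of the widest differences, 6 higher and 4 lower of 23, with 6 and 5 of the 10 calls left without chow replicate 1 or 2. Enho (ENSMUSG00000028445, chromosome 4), the gene of the peptide adropin, measured 25.7, 20.1 and 19.8 CPM on chow and between 0.275 and 2.4 CPM (median 0.7) on Western diet, 30.4-fold lower (log2FC -4.93 ± 0.31, adjusted p = 5.17e-11). All 6 Western diet mice lay at least 8-fold below the lowest chow mouse. Inhbe, the activin E subunit, rose from 27.8, 22.5 and 11.9 CPM to between 82.1 and 165 CPM (median 107, log2FC 2.24 ± 0.22, adjusted p = 1.52e-07). Tsku, tsukushi, rose from 100, 68.9 and 16.1 CPM to between 122 and 199 CPM (median 151, log2FC 1.23 ± 0.31, adjusted p = 0.00616). Fgf21, followed in the study, was above chow in all 6 mice but varied from 0.37 to 14.5 CPM. It did not pass in limma (log2FC 3.41 ± 1.36, adjusted p = 0.0733), while 5 of the 10 alternatives called it higher, among them quasi-likelihood in edgeR (adjusted p = 0.00622).

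Many plasma proteins made by hepatocytes fell. Of 34 complement and coagulation genes 18 were lower and 0 higher (median -0.30), and 9 and 5 calls were left without chow replicate 1 or 2. C3, the central complement protein, measured 7118, 7177 and 11285 CPM on chow and between 3203 and 5796 CPM (median 4332) on Western diet, one of the 5 largest losses in CPM (log2FC -0.85 ± 0.17, adjusted p = 0.000941). C8b, a subunit of the membrane attack complex, measured 316, 334 and 367 CPM and between 18.7 and 248 CPM (median 90.6, log2FC -2.12 ± 0.45, adjusted p = 0.00167; adjusted p = 0.0582 without chow replicate 2). The early component C2 measured 22.9, 21.1 and 21.8 CPM and between 8.2 and 20 CPM (median 11.2, log2FC -0.90 ± 0.17, adjusted p = 0.000458). None of the 3 overlapped, and Western diet replicate 8 was the highest of its group for 20 of the 34 genes. Acute-phase proteins parted, with 6 of 25 higher and 4 lower, and 6 and 2 of these 10 calls were left without chow replicate 1 or 2. The inducible Saa2 (log2FC 2.92 ± 0.72, adjusted p = 0.00524), Lcn2 (log2FC 3.70 ± 1.14, adjusted p = 0.0222) and Orm3 (log2FC 2.69 ± 0.54, adjusted p = 0.00106) rose. Those that fell included the fibrinogen chains Fga (log2FC -0.33 ± 0.12, adjusted p = 0.0458), Fgb (log2FC -0.35 ± 0.13, adjusted p = 0.0481) and Fgg (log2FC -0.35 ± 0.12, adjusted p = 0.0422). The calls of the 3 chains were each lost in 5 or 6 of the 9 fits without 1 library. Saa2 was lost without chow replicate 1 or 2 (adjusted p = 0.127 without chow replicate 1 and 0.136 without chow replicate 2) and Orm3 without the latter (adjusted p = 0.0518 without chow replicate 2). Lcn2, a siderophore-binding protein, spread from 6.82 to 76.6 CPM on Western diet against 1.82, 2.85 and 4.34 CPM on chow (adjusted p = 0.227 without chow replicate 1 and 0.254 without chow replicate 2). Saa and Orm genes are close copies.

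Clock genes differed between the groups, with 7 of 21 higher, 5 lower and a median of 1.02. Arntl, which encodes the activator BMAL1, measured 37.4, 37.4 and 27.6 CPM on chow and between 4.88 and 18.1 CPM (median 11.9) on Western diet (log2FC -1.58 ± 0.30, adjusted p = 0.000594). Its partner Npas2 measured 16.1, 15 and 7.73 CPM and between 0.95 and 8.52 CPM (median 5.42, log2FC -1.59 ± 0.39, adjusted p = 0.00557). Dbp and Per1 went the other way. Dbp, an output transcription factor with one of the widest daily rhythms in liver, measured 0.62, 1.25 and 5.13 CPM and between 8.79 and 51.3 CPM (median 25.3, log2FC 4.04 ± 1.17, adjusted p = 0.0157). Per1, a feedback repressor, measured 6.82, 7.66 and 5.48 CPM and between 9.41 and 24.2 CPM (median 19.5, log2FC 1.36 ± 0.37, adjusted p = 0.00993). Arntl and Nfil3 (log2FC -1.27 ± 0.21, adjusted p = 0.000164) were lower and Dbp and Per1 higher in every Western diet mouse than in any chow mouse. The calls of Npas2, Dbp and Per1 were lost without chow replicate 1 or 2 (for Dbp, adjusted p = 0.205 without chow replicate 1 and 0.225 without chow replicate 2). Of the bases of Dbp 491 lie opposite Sphk2. The list kept 4 and 3 of its 12 calls without these libraries. Of 18 clock genes with a RefSeq promoter, 5 (27.8%) held the E-box CACGTG against 9.78% of tested genes. A CCAAT box was present in 12 (66.7%) against 40.5%, a D-box in 1 (5.56%) against 1.75%, and the sterol element in 0. Elovl3, Cyp7a1 and Rgs16 are also rhythmic in liver. With no hour of collection on record, diet and time of day cannot be told apart for any of them. Rgs16, a regulator of G-protein signalling, measured 2.98, 2 and 1.7 CPM and between 21.2 and 112 CPM (median 58.4, log2FC 4.49 ± 0.88, adjusted p = 0.000808; adjusted p = 0.0534 without chow replicate 2).

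**Figure D5:**
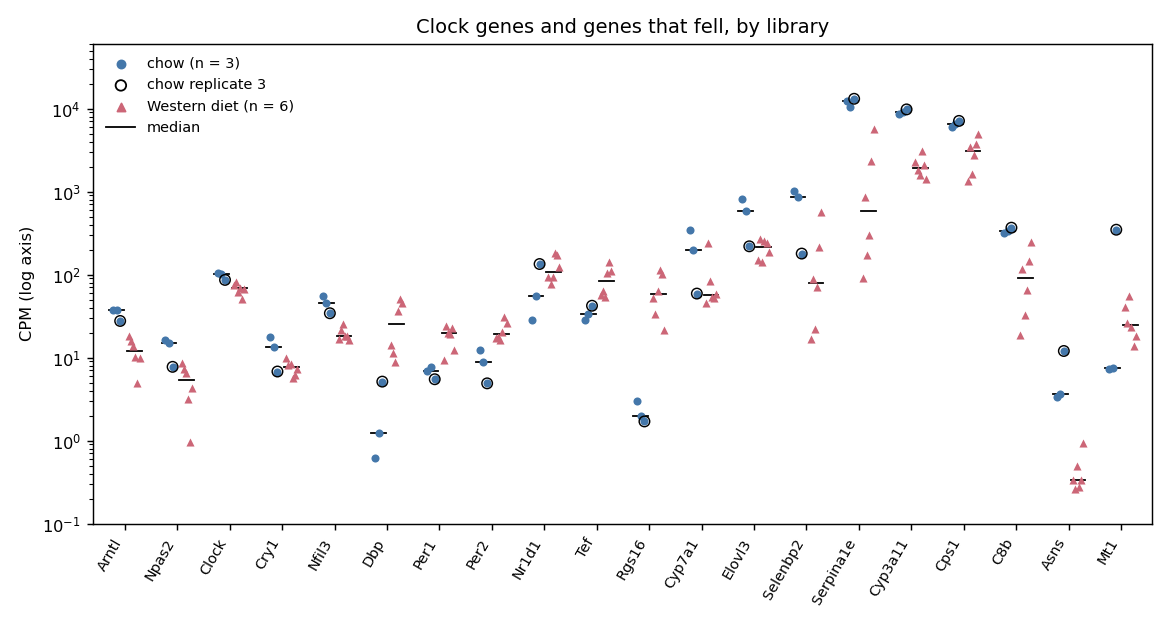
CPM on a log axis of clock genes (left), Rgs16 and genes that fell or did not pass (right) in each library, with circles for chow (replicate 3 ringed), triangles for Western diet and bars for group medians. Arntl lies lower and Dbp, Per1 and Rgs16 higher on Western diet in all mice, Serpina1e and C8b spread widely on Western diet, and Mt1 is high in chow replicate 3 only.

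Markers of other cells were examined to see whether the tissue held more of them. Of 16 Kupffer cell identity genes 5 rose and 0 fell (median 0.28), and their summed expression was 504 to 699 CPM on chow and 630 to 862 CPM on Western diet, overlapping ranges. The defining Clec4f did not pass (log2FC 0.26 ± 0.13, adjusted p = 0.157). Cd5l, a macrophage survival protein, was at 60.7, 52.4 and 76.7 CPM and between 83.9 and 142 CPM (median 134, log2FC 1.06 ± 0.22, adjusted p = 0.00144; adjusted p = 0.0663 without chow replicate 1 and 0.125 without chow replicate 2). Of 22 markers of lipid-associated and recruited macrophages 4 rose, 0 fell and the median was 1.26, a share of 18.2% called against 22% of all genes. Their summed expression was 128 to 154 CPM on chow, 408 and 335 CPM in Western diet replicates 1 and 4, and 164 to 208 CPM in the other 4 mice. Replicate 1 was the highest of its group for 14 of the 22 genes and replicate 4 for 6, and with either of them left out 0 genes were called. Trem2 and Gpnmb, the markers most often used for these cells, were near 0 on chow and spread on Western diet, and neither passed. Trem2 measured 0.579, 0.445 and 0.473 CPM and between 0.496 and 3.88 CPM (median 1.73, log2FC 1.68 ± 0.98, adjusted p = 0.228). Gpnmb measured 0.165, 0.0445 and 0.552 CPM and between 0.229 and 14.3 CPM (median 4.24) (adjusted p = 0.497). Lgals1 (log2FC 2.16 ± 0.72, adjusted p = 0.0332) and Lgals3 (log2FC 1.65 ± 0.54, adjusted p = 0.0293), galectins of macrophages and other cells, rose, but both calls were lost without chow replicate 1 or 2 and without Western diet replicate 1 or 4. MHC class II genes rose for 5 of 9 (median 0.82), with Cd74 at 60.3, 58.5 and 112 CPM and between 79.5 and 149 CPM (median 117, log2FC 0.82 ± 0.28, adjusted p = 0.0372; lost in 6 of the 9 fits without 1 library, with an adjusted p of up to 0.577). Without chow replicate 1 or 2, the macrophage, recruited macrophage and MHC class II lists kept 1 and 0, 0 and 0, and 0 and 0 calls. Kupffer genes gave 3 calls without Western diet replicate 1 or 2, and MHC class II genes 2 without replicate 1 or 4 and 3 without replicate 2 or 8.

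Lymphocyte and neutrophil markers were low, with summed expression under 50 CPM per list in every library. Of 8 neutrophil markers 0 were called, of 9 T and NK cell markers 1 was higher, and of 6 B cell markers 1 was lower. Summed B cell markers measured 18.6, 10.8 and 11.2 CPM on chow. On Western diet they measured 29.1 to 44.8 CPM in replicates 1, 2, 4, 6 and 7 and 9.42 CPM in replicate 8. Among 22 chemokines and receptors 4 rose and 3 fell, with 2 calls left without chow replicate 1 or 2 and 4 calls without Western diet replicate 1 or 4. Cxcl9, an interferon-gamma-induced T cell attractant, rose from 7.11, 6.28 and 16.4 CPM to between 17.5 and 51.3 CPM (median 27.5, log2FC 1.93 ± 0.44, adjusted p = 0.00306; adjusted p = 0.149 without chow replicate 1 and 0.185 without chow replicate 2). Cxcl13, the B cell attractant, fell from 7.53, 2.94 and 2.6 CPM to between 0.453 and 1.32 CPM (median 0.714, log2FC -2.60 ± 0.39, adjusted p = 4.38e-05). Ccl2 did not pass (log2FC 1.55 ± 1.12, adjusted p = 0.335). Toll-like receptor and NF-kB genes gave 2 of 24 higher, of which Tlr12, an endosomal receptor for profilin, rose from 11.4, 6.19 and 3.71 CPM to between 19.8 and 50.2 CPM (median 30.1, log2FC 2.16 ± 0.32, adjusted p = 3.87e-05). Interferon-stimulated genes gave 2 of 30 higher and 0 lower, below the 10.1% called higher over all genes. Without chow replicate 1 or 2 the lymphocyte and interferon lists had 0 calls and the Toll-like receptor list 1.

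Matrix genes gave 2 of 31 higher. Col3a1, a fibrillar collagen, was at 20.1, 21.6 and 28.9 CPM and between 28.7 and 91.7 CPM (median 39.7, log2FC 1.11 ± 0.36, adjusted p = 0.0297; lost in 4 of the 9 fits without 1 library, with an adjusted p of up to 0.317). Col1a1, the other main fibrillar chain, was above chow in all mice, with 3.76, 4.72 and 3.94 CPM and between 6.32 and 34.4 CPM (median 11.5), but did not pass (log2FC 1.65 ± 0.75, adjusted p = 0.115). Stellate cell genes gave 2 of 15 higher, among them Lrat, the retinyl ester synthase of these cells (log2FC 0.54 ± 0.11, adjusted p = 0.00175), and Acta2 did not pass (log2FC 0.74 ± 0.47, adjusted p = 0.276). Sinusoidal endothelium gave 1 higher and 1 lower of 13, and the marker Stab2 did not pass (log2FC 0.02 ± 0.06, adjusted p = 0.868), and bile duct genes 1 higher of 7. The retinoid list had 6 of 20 higher and 2 lower, with 3 and 4 calls left without chow replicate 1 or 2, and Rdh11, a retinol dehydrogenase that is also a SREBP target, fell from 90.5, 83.6 and 76.6 CPM to between 11.8 and 34.9 CPM (median 32, log2FC -1.60 ± 0.21, adjusted p = 8.16e-06). Among hepatocyte identity genes 1 of 14 rose, Cebpb (log2FC 1.02 ± 0.20, adjusted p = 0.000983; adjusted p = 0.088 without chow replicate 1 and 0.0786 without chow replicate 2), and 3 fell, and Alb (log2FC -0.20 ± 0.15, adjusted p = 0.344) and Hnf4a (log2FC 0.07 ± 0.10, adjusted p = 0.651) did not pass. Without chow replicate 1 or 2, 0 matrix, endothelial, bile duct and hepatocyte identity genes and 1 stellate cell gene were called. Without Western diet replicate 1 or 4, matrix genes gave 0 calls. Hepatocyte identity genes gave 2 calls without Western diet replicate 1 or 4 and also without chow replicate 3. Whether cell makeup had a part in the differences in hepatocyte genes was not tested.

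Stress genes moved in both directions. Of 18 ATF4 targets 4 rose and 3 fell, 38.9% against 22% of all genes, with 3 calls left without chow replicate 1 or 2. The median was 0.72, but summed expression, which the most abundant members set, was lower, at 952 to 1423 CPM on chow and 579 to 703 CPM on Western diet, ranges that did not overlap. Asns, asparagine synthetase, measured 3.35, 3.69 and 12 CPM on chow and between 0.264 and 0.924 CPM (median 0.334) on Western diet (log2FC -3.45 ± 0.67, adjusted p = 0.000765). Sesn2, a sestrin, rose from 5.75, 7.39 and 6.39 CPM to between 11.9 and 14.1 CPM (median 13.2, log2FC 1.0 ± 0.13, adjusted p = 1.22e-05). Chac1, a glutathione-degrading enzyme, rose (log2FC 2.49 ± 0.66, adjusted p = 0.00852; adjusted p = 0.198 without chow replicate 1 and 0.147 without chow replicate 2). ER chaperones gave 2 higher and 4 lower of 22, but 0 and 1 of these calls were left without chow replicate 1 or 2, the quasi-likelihood test called 1, and Hspa5 (BiP) did not pass (log2FC -0.16 ± 0.16, adjusted p = 0.506). Heat shock proteins gave 1 each way of 16, with 0 left without chow replicate 1 or 2, and cell cycle genes 2 higher and 1 lower of 28, with 1 call left without chow replicate 1 or 2, and Mki67 at 1.65, 1.83 and 3.31 CPM and between 3.14 and 16.6 CPM (median 5.43, log2FC 1.70 ± 0.76, adjusted p = 0.109). Lysosome genes rose for 10 of 32 and fell for 2, with 3 and 1 of these calls left without chow replicate 1 or 2. Lipa, which frees cholesterol and fatty acids from lysosomal esters, rose from 229, 225 and 232 CPM to between 226 and 442 CPM (median 369, log2FC 0.58 ± 0.12, adjusted p = 0.0016; adjusted p = 0.0609 without chow replicate 2). Metallothionein Mt1 was at 7.32, 7.57 and 347 CPM on chow, where replicate 3 alone was high, and between 13.6 and 55.4 CPM (median 24.7) on Western diet (log2FC 1.12 ± 0.79, adjusted p = 0.327).

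Cytosolic ribosomal protein genes fell slightly but broadly, 42 of 79 with 0 rises and a median of -0.27, with 25 and 14 of these calls left without chow replicate 1 or 2. The quasi-likelihood test called 16. Summed expression overlapped, at 14816 to 17496 CPM on chow and 11067 to 15248 CPM on Western diet. For 63 of the 79 genes chow replicate 3 was the highest chow library, and for 63 Western diet replicate 7 was the highest of its group. Rps24 measured 251, 254 and 296 CPM and between 156 and 238 CPM (median 169, log2FC -0.52 ± 0.10, adjusted p = 0.000471). Rpl13a measured 314, 315 and 418 CPM and between 184 and 342 CPM (median 224, log2FC -0.51 ± 0.12, adjusted p = 0.00329). These genes have many processed copies in the genome that can share reads. Mitochondrial ribosomal proteins gave 4 higher and 7 lower of 76, nuclear respiratory chain subunits 4 and 3 of 78, and the 13 genes of the mitochondrial genome 0 calls (median -0.20). Without chow replicate 1 or 2 the mitochondrial ribosomal list kept 2 and 1 calls and the nuclear respiratory chain list 0, which had 11 calls without chow replicate 3. The mitochondrial ribosomal list had 7 calls without Western diet replicate 4.

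The rule for the widest changes outside any list named a few further genes. Mfsd2a (ENSMUSG00000028655, chromosome 4), a carrier of lysophosphatidylcholine that bears omega-3 fat, measured 3.51, 4.63 and 13.1 CPM on chow and between 75 and 215 CPM (median 150) on Western diet, 29.5-fold higher and separate in all mice (log2FC 4.88 ± 0.33, adjusted p = 2.09e-10). Themis, known as a thymocyte signalling protein, rose from 0.248, 0.267 and 0.552 CPM to between 2.63 and 17.5 CPM (median 8.28, log2FC 4.63 ± 1.32, adjusted p = 0.0141; adjusted p = 0.19 without chow replicate 1 and 0.217 without chow replicate 2); 153 of its bases lie opposite 4930519F09Rik. Slc2a4, the insulin-regulated glucose transporter of muscle and fat, was at 0.248, 0 and 0.0789 CPM and between 0.924 and 2.61 CPM (median 2.11) (adjusted p = 0.0188). Eda2r, a p53-responsive receptor, was at 0.413, 0 and 0.118 CPM and between 0.661 and 3.95 CPM (median 2.06) (adjusted p = 0.0105). Pnpla5, a lipase of the Pnpla3 family, had 0 counts in all 3 chow libraries and ranged from 0.185 to 5.15 CPM on Western diet (adjusted p = 0.0175), and no fold is given for it. The calls of Slc2a4, Eda2r and Pnpla5 were lost without chow replicate 1 or 2. Among falls, Fam222a went from 17.4, 11.7 and 8.4 CPM to between 0.683 and 2.86 CPM (median 1.7, log2FC -3.04 ± 0.28, adjusted p = 4.35e-08). Loxl4, a lysyl oxidase-like enzyme, fell from 27.4, 12.4 and 14.9 CPM to between 1.42 and 3.74 CPM (median 1.99, log2FC -2.86 ± 0.31, adjusted p = 7.4e-07). Srgap3, a GTPase-activating protein, fell from 21.8, 16.3 and 12.9 CPM to between 1.39 and 5.06 CPM (median 2.07, log2FC -2.74 ± 0.22, adjusted p = 4.71e-09). All of these separated the groups. The largest gains in CPM besides Scd1 and Fabp1 were the noncoding Rn7sk (log2FC 0.78 ± 0.21, adjusted p = 0.00965) and Gm26917 (log2FC 0.56 ± 0.16, adjusted p = 0.0156) and Apoe, the remnant apolipoprotein (log2FC 0.40 ± 0.14, adjusted p = 0.0456), all 3 with calls lost without chow replicate 1 or 2, and Rn7sk overlapped between diets. Exons on the opposite strand, of 6 to 2268 bases, also cover parts of Abcb11, Acmsd, C2, Cebpb, Cidea, Enho, Gls2, Glul, Irs2, Mogat1, Nr1i3, Plin4, Rgs16, Sirt1 and Stab2.

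The 16 other Western diet libraries of the study, from WT mice given NAMPT and from mice lacking SIRT1 in hepatocytes (LKO) given EV or NAMPT, give a side view that shares the same 3 chow mice. For Scd1 they lay at 22939 to 78363 CPM, for Sqle at 1.87 to 11.4 CPM, for Enho at 0.349 to 2.6 CPM, for Mfsd2a at 61 to 198 CPM, for Apoa4 at 617 to 2485 CPM and for Cyp3a11 at 923 to 3454 CPM. All 16 were on the same side of the chow values as the 6 mice described here for each of these 6 genes. For the male-biased Serpina1e they spread widely, at 46.5 to 6543 CPM, also below chow in all 16. Of the 819 genes called higher without overlap, 313 had all 16 further libraries above every chow library, and of the 969 called lower without overlap, 422 had all 16 below. Since the chow mice are the same in both readings, these counts are not independent of the calls.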

How the data were processed

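RNA from mouse liver was sequenced by the authors, 1 library per mouse, and the deposited table of each library holds, per gene, the count of reads, the CPM and the RPKM. The submitters' processing notes name STAR 2.5.1a, featureCounts 1.4.6-p5 and GRCm38; whether counting used strand is not given in the sources used here. CPM and RPKM recomputed from the deposited counts and gene lengths matched the deposited CPM and RPKM (largest relative deviation 5.92e-14), so tests used the counts. The files list 41388 genes, of which 40254 were given a symbol.

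Groups came from the sample labels. Genes over 1 CPM in at least 2 of the 25 libraries were kept and 4 ribosomal RNA genes left out, giving 14065. Following the study's methods, counts were TMM-normalized and fitted with limma 3.58.1 (voom with sample quality weights, R 4.3.3), 1 mean per group over all 25 libraries, which share the estimate of the spread. P-values were adjusted by Benjamini-Hochberg over all genes and called at 0.05. Alternatives were edgeR 4.0.16 (quasi-likelihood and exact tests), DESeq2 1.42.0, other scalings, no filter, no quality weights, only the 9 libraries, a replicate block, and leaving out each library. Plots of differences used log2(CPM + 0.5). On simulated counts, 66.5% of 200 genes changed 2-fold among 14065 were recovered, with 8 false calls. The simulated libraries shared 1 spread per gene and did not differ in quality as the real ones did. These figures therefore do not measure the error of the fit to the real libraries. No 2 replicates looked like the same library: chi-square over its degrees of freedom was at least 15.1.

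Named genes were, per list, an anchor gene and up to 4 called members with the largest change at an average log2 CPM of at least 0; over all genes, the 10 largest non-overlapping rises and falls, the 5 largest gains and losses in CPM and the 5 smallest p-values each way; and Sirt1 and Nampt. This gave 248 genes, a few of which are not reported here. A further 23 with values were chosen after their values were seen, among them Hmgcs1, Khk, Plin2, Ass1, Fga, Fgb, Fgg, Nfil3 and Cyp2d40. The comparison, the lists and the rule were chosen with earlier results of these data known. List counts carry no test. The treatment text of the labels names a SIRT1 insert for the vector, whereas titles name NAMPT; the 9 mice carried the empty vector under either reading.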

Additional observations from a re-analysis of the deposited data

Results flagged for a closer look

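The 6 Western diet libraries were searched for single mice far from the rest, by the gap between the highest or lowest library and its neighbour as a share of the whole range (Dixon's 95% limit), for both ends of 271 genes. This flagged 15 of 542 values, and chance alone flags about 1 in 20 groups. The number of flags over the 271 genes is thus near what chance gives, and the flags carry little weight. The 3 chow libraries were too few to search.

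Replicate 8 accounted for 6 of the 15. It had the highest Selenbp2 (566 CPM, next 214), Gstp2 (35.7 CPM, next 20.0), Chac1 (8.22 CPM, next 4.72) and Asns (0.924 CPM, next 0.488), and the lowest Rdh11 (11.8 CPM, next 27) and Acly (247 CPM, next 466). It was the lowest of its group for most lipid genes, as given in the account of the libraries. Without it, 19 cholesterol synthesis genes were called, as with it, and 10 lipid droplet genes in place of 9.

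Replicate 2 had the highest Cyp7a1 (240 CPM, next 83.9), Srgap3 (5.06 CPM, next 2.27) and Loxl4 (3.74 CPM, next 2.25). Replicate 4 had the highest Csad (172 CPM, next 88.5), Acta2 (5.86 CPM, next 3.08) and the haemoglobin gene Hba-a1 (442 CPM, next 251). Replicate 7 had the highest Nr1i2 (73.7 CPM, next 48.0). Replicate 1 had the lowest Hsp90b1, an ER chaperone (257 CPM, next 317), and replicate 6 the lowest Rplp0, a ribosomal protein (226 CPM, next 292). What set these mice apart was not tested.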

How the results depend on the processing

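The number of genes called depended on the method and on 2 chow libraries. In place of 3101 calls (1414 higher, 1687 lower, 664 over 2-fold), DESeq2 gave 1745 (937 higher, 808 lower), the edgeR exact test 1466 (718 higher, 748 lower), the edgeR quasi-likelihood test 1322 (644 higher, 678 lower), no filter on low counts 1970 (920 higher, 1050 lower), and no sample quality weights 1201 (507 higher, 694 lower, 394 over 2-fold). Leaving out 1 library gave 843 to 3171 calls, 356 to 1465 higher, 487 to 1706 lower and 333 to 741 over 2-fold. Without replicate 1 of chow 952 genes were called, and without replicate 2, 843. Replicate numbers were shared by 2 pairs of mice only, whose deviations correlated at -0.0565 and 0.066, so the numbers do not pair the samples; with the replicate block 3842 genes were called, 1243 of them over 2-fold. The cause of these differences was not tested. Of the called genes, 974 were called under all 10 alternatives and 667 without any 1 library. Among 5148 values of named genes under alternatives, 4241 kept their side of the threshold, 871 fell short of it and 36 newly passed. Values of genes called in either fit gave 0 reversals, but a changed sign in a gene called in neither fit counted as unchanged. Of 222 named genes called, 90 were called in every alternative and without any 1 library. Of 1197 list counts, 374 moved. With 3 chow mice, differences of 2-fold are often missed, and absence of a call is not evidence of no change. Depth (at least 20216945 counts) limits chow values near 0, as for Pnpla5, Cidea and Cfd.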
